A study of Danio rerio with 6 samples.

Results

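The mitochondrial ribosome and mitochondrial tRNA charging genes of zebrafish (Danio rerio) were examined in guts sampled after a complete cut through the organ. Genes were taken by symbol alone: symbols beginning with mrpl or mrps and a number, which name proteins of the large and small subunit, and symbols of a single letter followed by ars2, which name the mitochondrial aminoacyl-tRNA synthetases. The rule matched 84 of the 15419 symbols counted, 46 of them mrpl genes, 28 mrps genes and 10 synthetase genes. The libraries are bulk RNA sequencing of guts taken from wild-type larvae, given in the labels as 5 days post-fertilization without saying whether that is the age at cutting or at sampling. In 3 libraries (labelled cut_wt, called transected here) the gut had been cut 24 h earlier, and the other 3 (labelled wt, called control) carry the same genotype and no mention of a cut. No transgene, drug or strain is named, and each library pooled 10 to 15 guts.

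Mitochondria keep a small genome, and the few respiratory chain proteins that it encodes are made on a ribosome of their own. The RNA of that ribosome comes from mitochondrial DNA, while its proteins and the synthetases that charge the mitochondrial tRNAs are encoded in the nucleus, made in the cytosol and imported. Some of its proteins descend from bacterial ribosomal proteins and keep their numbers, and others exist only in mitochondria. In the gut, absorptive enterocytes are rich in mitochondria and depend on them to fuel nutrient uptake.

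Library totals ran from 21525093 to 25131242 counts. On the first principal component (47.0% of the variance) transected and control replicate 1 lay at -33.1 and -44.3, and the other 4 libraries between 0.00369 and 48.5. Of 15 enterocyte markers 14 passed the expression filter, with fabp2 below it. Markers of neighbouring tissue were also read, with summed levels of 33282 to 128980 CPM (counts corrected for library size) for 15 exocrine pancreas genes and 4681 to 15206 CPM for 11 hepatocyte genes. In such bulk samples fewer cells of a type and less RNA per cell cannot be told apart. The sample titles call the libraries biological replicates. Nothing in the labels says that replicates came from separate clutches, so p-values measure only the spread between these libraries.

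Of the 84 genes 73 passed the expression filter and were tested, 41 mrpl, 23 mrps and 9 synthetase genes, with 577 to 11508 counts each over the 6 libraries. Among the 11 not tested, mrpl10, mrpl18, mrpl45, mrpl47, mrpl54, mrps16, mrps18c, mrps26, mrps28 and pars2 are listed at 0 in every library. These 10 are 11.9% of the matched symbols, and 10.7% of all symbols in the table are likewise at 0 throughout. Subunits of a ribosome that nearly every cell uses are among them, so they are said only to be listed at 0, and no level is given. The eleventh, mrps36, held 1 count in 1 library. RefSeq (GRCz12tu) lists it as kgd4, which in mammals encodes a part of the 2-oxoglutarate dehydrogenase complex. Protein and promoter sequences were not used here.

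No mitochondrial ribosome or synthetase gene passed the test between transected and control guts, and fitted differences were small. With edgeR's quasi-likelihood test, 0 of the 73 genes were higher and 0 lower at an adjusted p under 0.05, where 0.0174% of all 11466 genes tested were higher and 0% lower. Before adjustment 0 were higher and 0 lower at the same threshold, against 4.32% and 3.55% of all genes, or 7.87% in either direction. DESeq2 called 0 of the 73, against 1.46% of all genes with an adjusted p. The count was also 0 with the replicate number as a block, which called 0.0349% of all genes, and without both replicate 1 libraries, where 2.37% of all genes were called. The fitted log2 fold changes ran from -0.28 to 0.24 with a median of 0.02, and 44 were positive and 29 negative. Leaving out 1 library moved this median from -0.04 (without transected replicate 2) to 0.11 (without transected replicate 1), so its sign rests on single libraries. For all genes tested the median was 0.00. Of the 73, 72 lay within 0.25 of 0 (98.6%), as did 67.1% of all genes. All genes tested include those of lower and higher level than the set, and this share was not matched for level. Among respiratory chain genes the share was 98.8%, and among cytosolic ribosomal protein symbols 98.7%, so it was not particular to the set.

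Each interval, from the fit on group alone, bounds the change of a single gene and is not a joint bound on the set. The 95% interval of the log2 fold change excluded a 2-fold change in either direction for all 73 tested genes, and a 1.5-fold change for 59. The outermost limits were ratios of 0.622 (mrpl1) and 1.67 (mrpl13), and the median distance from estimate to limit was 0.37 on the log2 scale. For 61 of the 73 genes the difference between group means was smaller than 1 pooled SD between replicates (83.6%, against 66.6% of all genes tested). That SD includes the differences by replicate number described further on, and the share of all genes was not matched for level.

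**Figure D1:**
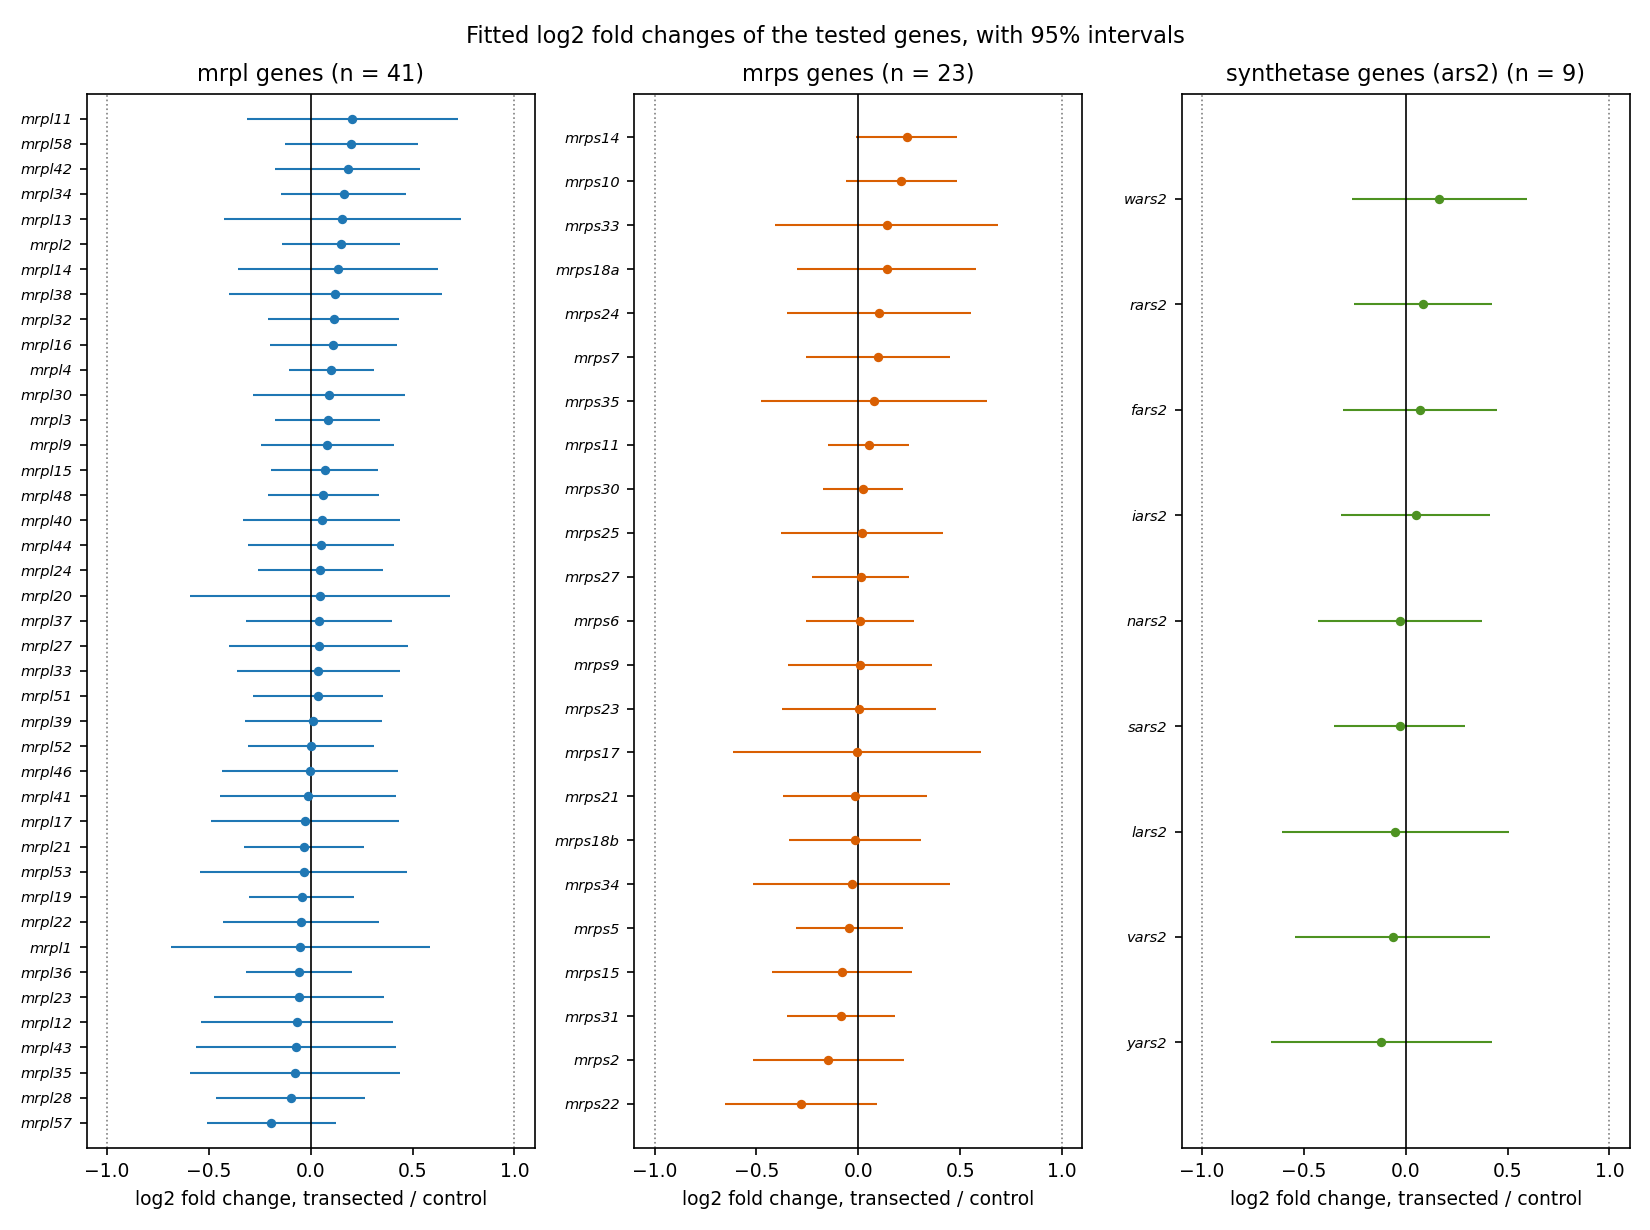
Fitted log2 fold change (transected over control, horizontal axis) of each tested mrpl, mrps and synthetase gene, with 95% intervals from the edgeR fit (3 libraries per group); dotted lines mark a 2-fold change. Points lie between -0.28 and 0.24, all 73 intervals include 0, and none reaches a dotted line.

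The large subunit holds the site of peptide bond formation. Of its 41 tested mrpl genes 26 had a positive and 15 a negative log2 fold change, with a median of 0.04. The 26 genes that carry the number of a bacterial protein (up to mrpl36) had a median of 0.05, and the 15 with higher numbers, mostly proteins that bacteria lack, had 0.03. mrpl2, which encodes a conserved protein next to the catalytic centre, stood at 78.4, 86.4 and 95.8 CPM in transected replicates 1, 2 and 3 and at 69.7, 81.2 and 84.3 CPM in the controls. The groups overlapped, since transected replicate 1 lay below controls 2 and 3. Its log2 fold change was 0.15 (SE 0.12, edgeR adjusted p = 0.837).

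mrpl58 encodes a peptidyl-tRNA hydrolase that in human cells is built into the large subunit and frees stalled ribosomes. It had 7.49, 8.44 and 8.11 CPM in transected and 7.61, 6.60 and 6.70 CPM in control guts. Only control replicate 1 reached into the transected range, and the log2 fold change was 0.20 (SE 0.14, adjusted p = 0.795). mrpl34, a small protein shared with bacteria, had 18.1, 22.4 and 21.7 against 16.9, 20.0 and 18.7 CPM. Its groups overlapped as well (log2 fold change 0.16, SE 0.13, adjusted p = 0.830). In RefSeq mrpl34 overlaps the gene ano8a, and mrpl2 overlaps zmp:0000000755, so shared reads are possible.

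mrpl57, which encodes a short protein found only in mitochondrial ribosomes, had the most negative value of its class. It read 10.3, 12.6 and 13.2 CPM in transected guts and 14.1, 13.2 and 13.9 CPM in controls. The transected libraries lay below the controls by a margin lost in rounding, and the log2 fold change was -0.19 (SE 0.13, 95% interval -0.51 to 0.12, adjusted p = 0.797). With a filter of at least 1 CPM in 3 libraries the groups overlapped.

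The small subunit binds the mRNA and reads its codons. Of 23 tested mrps genes 14 were positive and 9 negative, with a median log2 fold change of 0.01. Both ends of the whole range fell in this class. mrps14, a conserved protein of the subunit's head, had 17.1, 17.5 and 17.3 CPM in transected guts and 15.5, 15.0 and 13.5 CPM in controls. Every transected library lay above every control, at 17.3 ± 0.163 against 14.7 ± 1.02 CPM (mean ± SD, n = 3 libraries per group). The log2 fold change of 0.24 (SE 0.10, 95% interval -0.01 to 0.48) had the smallest unadjusted p of the 73 genes, 0.0575, and an edgeR adjusted p of 0.658.

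mrps22, a protein of the small subunit that bacteria lack and whose human gene is linked to mitochondrial disease, had the most negative value. It stood at 9.49, 9.70 and 11.3 CPM in transected and 10.3, 13.7 and 13.1 CPM in control guts. Control replicate 1 lay inside the transected range, and the log2 fold change was -0.28 (SE 0.16, 95% interval -0.65 to 0.09, adjusted p = 0.744). RefSeq places a long non-coding RNA across mrps22, and the strand setting of the counting is not given in the sources used here.

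mrps10, another conserved protein of the head, had 26.5, 31.2 and 32.2 CPM against 24.6, 27.6 and 25.5. Transected replicate 1 was the low one of its group and lay below control replicate 2 (log2 fold change 0.21, SE 0.11, adjusted p = 0.736). mrps2 went the other way in its means, with 18.6, 25.9 and 24.4 CPM in transected and 25.8, 22.7 and 27.8 CPM in control guts. These ranges overlapped widely (log2 fold change -0.15, SE 0.16, adjusted p = 0.885).

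mrps11, named after its values were seen, was the second gene with all transected libraries above all controls, at 29.3, 29.3 and 29.6 against 27.9, 28.8 and 28.5 CPM. The fitted difference was 0.05 on the log2 scale (SE 0.08, adjusted p = 0.937). Its neighbour in RefSeq is mrpl46, the sole pair of adjacent genes within the set. With mrps14, mrps11 and mrpl57, the groups did not overlap for 2 higher genes and 1 lower gene among 73. Over all genes tested 7.48% lay wholly higher and 6.38% wholly lower, 13.9% together. With 5 libraries, where separation is more frequent by construction, 20 of 73 genes (27.4%) lay wholly higher without transected replicate 1, against 14.9% of all genes, and 7 (9.59%) wholly lower without control replicate 1, against 15.6%.

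**Figure D2:**
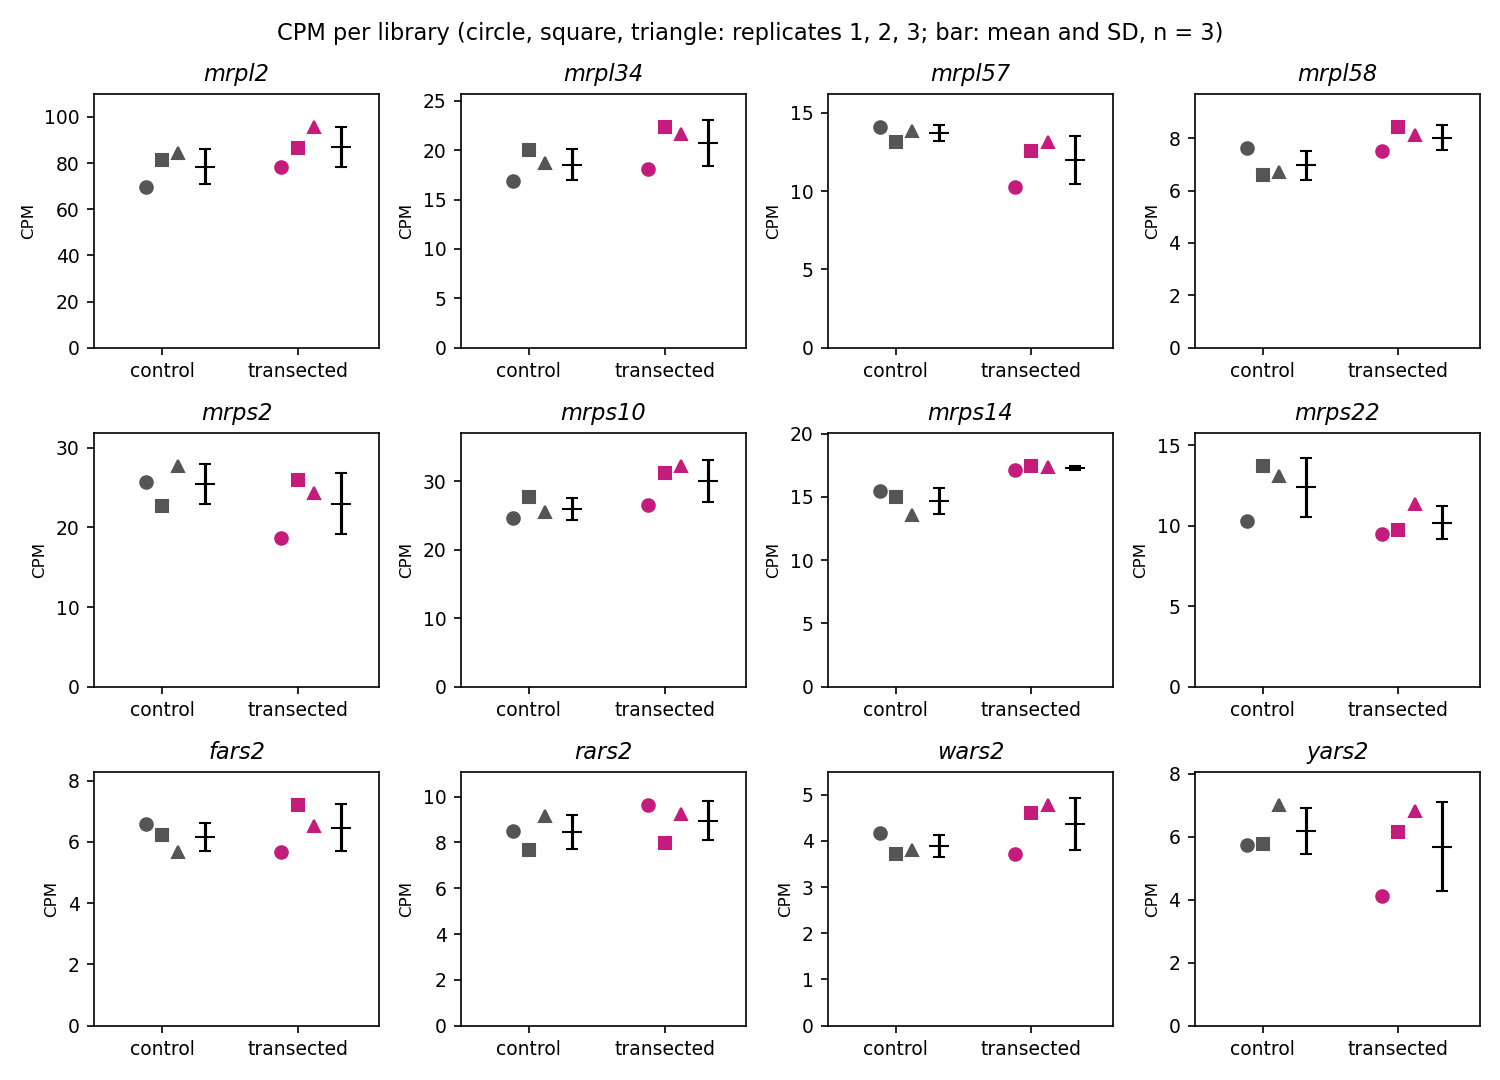
CPM (vertical axis, from 0) in each library for the 4 genes of each class with the smallest unadjusted p; circles, squares and triangles are replicates 1, 2 and 3, and bars give mean and SD (n = 3). In mrps14 the transected libraries sit at 17.1 to 17.5 CPM, above controls of 13.5 to 15.5 CPM, and in mrpl57 the groups all but touch.

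Subunit names do not always give the subunit. In mammals the proteins of mrps30 and mrps18a sit in the large subunit. Both genes are named outside the rule of smallest p, with their values known. mrps30 was the steadiest of all 73 genes, at 34.9, 35.6 and 35.96 CPM in transected and 35.9, 34.0 and 35.05 CPM in control guts, a coefficient of variation of 2.13% over the 6 libraries. mrps18a had 16.4, 24.6 and 25.5 against 18.8, 21.2 and 20.5 CPM, with transected replicate 1 lowest of all 6 (log2 fold change 0.14, SE 0.18, adjusted p = 0.914). Summed over each class, mrpl genes held 1.96 to 2.04 times the CPM of mrps genes in transected libraries and 1.88 to 1.99 times in controls.

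The synthetases join each amino acid to its mitochondrial tRNA. Of 9 tested genes 4 were positive and 5 negative, with a median log2 fold change of -0.03, and the groups overlapped in all 9. Without transected replicate 1 that median was 0.105. wars2, for tryptophan, had 3.73, 4.60 and 4.79 CPM in transected and 4.17, 3.72 and 3.80 CPM in control guts (log2 fold change 0.16, SE 0.18, adjusted p = 0.889). rars2, for arginine, had 9.65, 7.99 and 9.23 against 8.49, 7.67 and 9.15 CPM, so that the groups shared most of their range (0.09, SE 0.14, adjusted p = 0.938).

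yars2, for tyrosine, had 4.11, 6.14 and 6.81 against 5.74, 5.77 and 7.02 CPM. Transected replicate 1 was far below the rest, and without it the log2 fold change turned from -0.12 (SE 0.23, adjusted p = 0.951) to 0.06. fars2, for phenylalanine, works as a single chain, unlike the cytosolic enzyme built from farsa and farsb. It had 5.69, 7.22 and 6.51 against 6.59, 6.23 and 5.66 CPM (0.07, SE 0.16, adjusted p = 0.964), with transected replicate 1 and control replicate 3 at the low end, and its value was -0.015 without transected replicate 2. RefSeq shows overlapping genes for fars2, wars2 and yars2, among the 23 of 73 tested genes with such an overlap.

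Levels of the set followed the replicate number. In 45 of the 73 genes (61.6%) the replicate 1 library was the lowest of its group among both transected and control guts, and in 3 it was the highest in both. Over all 11466 genes tested it was lowest in both for 2735 (23.9%) and highest in both for 3116. Replicate 1 thus stood apart in many genes outside the set as well, in either direction. Shifts in opposite directions can cancel in a median over all genes. The median gene of the set was lower in replicate 1 than in the mean of replicates 2 and 3 with a median log2 difference of -0.32 among transected and -0.20 among control libraries, where the medians of all genes were 0.02 and 0.04. Relative to the mean of the 6 libraries the set's median level was -0.19, 0.13 and 0.11 in transected and -0.16, 0.03 and 0.06 in control replicates 1, 2 and 3. Within the pairs of equal number, the median log2 ratio of transected to control was -0.04, 0.07 and 0.04.

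**Figure D3:**
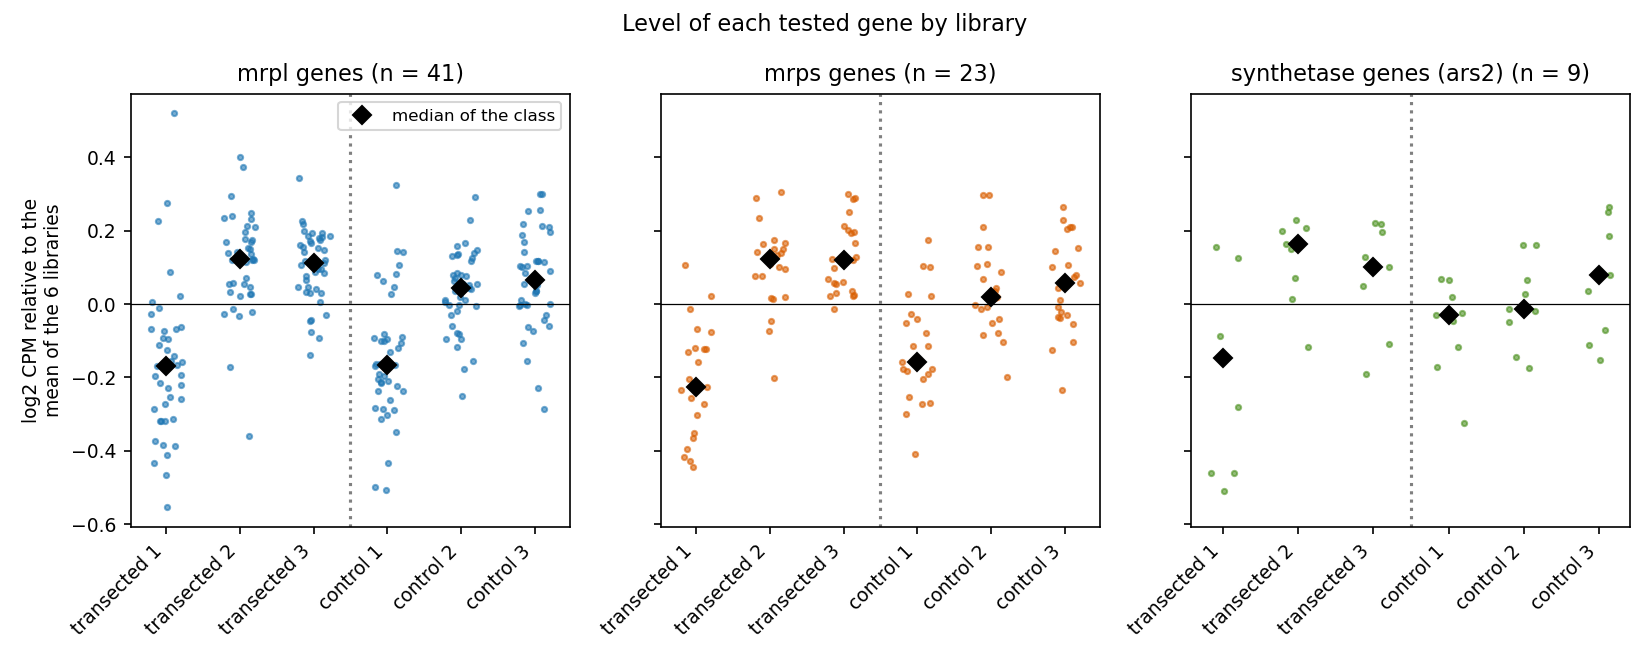
log2 CPM of each tested gene relative to its mean over the 6 libraries (vertical axis), by library, for mrpl, mrps and synthetase genes; diamonds are class medians. The replicate 1 libraries sit lowest in both groups for mrpl and mrps genes. For synthetase genes replicate 1 is lowest in transected guts, and control replicates 1 and 2 lie close together.

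mrps17, a conserved small subunit protein, gives the clearest case, at 6.15, 9.25 and 9.83 CPM in transected and 6.23, 9.21 and 9.92 CPM in control guts. Each library nearly matched the one of its own number in the other group. lars2, the leucine synthetase, had 10.3, 16.1 and 16.3 against 11.4, 15.9 and 16.9 CPM. Genes of the stalk that recruits elongation factors were also low in replicate 1, with mrpl12 at 35.2, 49.5 and 50.5 against 37.4, 50.1 and 54.4 CPM and mrpl11 at 20.7, 30.7 and 26.1 against 16.7, 24.9 and 25.7 CPM. In all 4 genes the replicate 1 libraries were the low ones in both groups.

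mrpl20, a conserved protein needed early in building the bacterial large subunit, ran the other way. It had 32.6, 17.7 and 20.7 CPM in transected and 28.4, 20.98 and 19.4 CPM in control guts, and its coefficient of variation of 25.1% was the largest of the 73 genes. mrpl42 and nars2 were the other genes with replicate 1 highest in both groups, and mrpl42 read 18.1, 14.6 and 15.3 against 16.1, 14.0 and 12.2 CPM. These genes and mrps17, lars2, mrpl12 and mrpl11 were named after their values were seen. Over the 73 genes the replicate 1 difference in transected guts correlated with that in controls at Pearson's r = 0.483, a description across genes that share libraries and are not independent. The median coefficient of variation of the set over the 6 libraries was 11.8%, against 14.2% for the 7051 genes in the same range of mean CPM. That coefficient includes any difference between the groups. The spread within groups that edgeR fitted, also as a coefficient of variation, had closer medians. It was 17.2% for the set and 17.8% for the 7055 genes in its range of average log2 CPM.

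**Figure D4:**
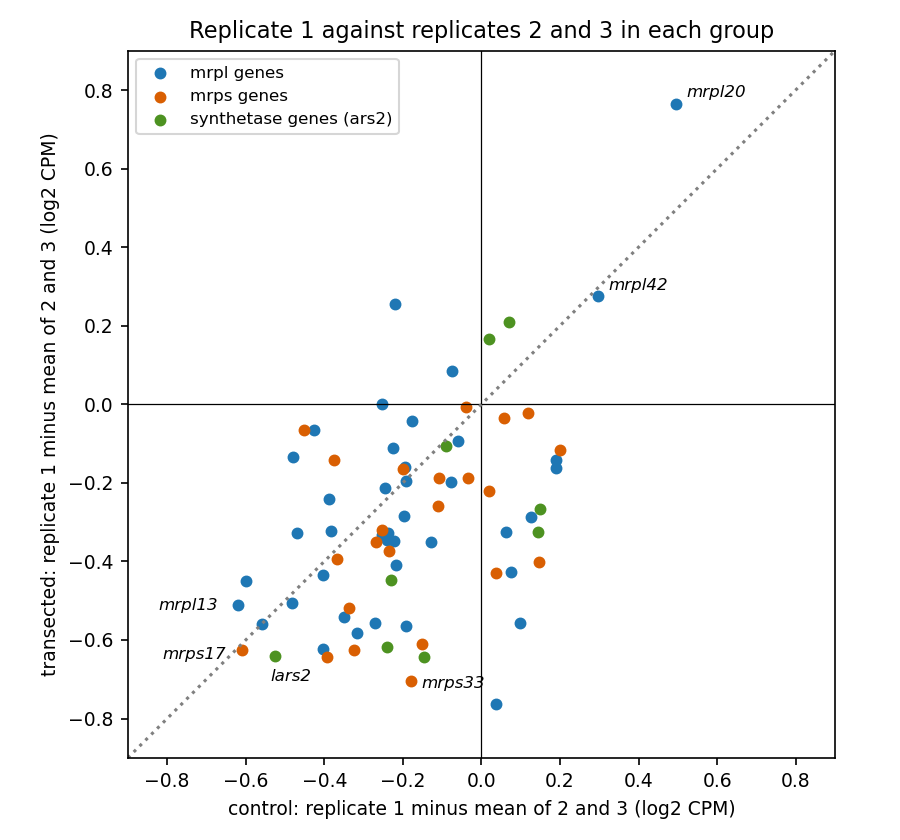
Difference in log2 CPM between replicate 1 and the mean of replicates 2 and 3, in control (horizontal) and transected guts (vertical), 1 point per tested gene; the dotted line marks equal differences. Most points lie in the lower left, and 4 points are above 0 on both axes, mrpl20 farthest at 0.49 and 0.77.

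Several lists of cell type markers also differed by replicate number, on the same scale of median log2 CPM relative to the 6 libraries. Median levels of 9 tested skeletal and smooth muscle markers were 0.77, -0.34 and 0.07 in transected and 0.51, -2.22 and 0.05 in control replicates 1, 2 and 3. For 10 hepatocyte markers they were 0.16, -0.64 and -0.50 against 0.93, -0.42 and 0.40. For 15 exocrine pancreas markers they were -0.29, 0.29 and 0.74 against -1.09, 0.63 and -0.21, and for 14 enterocyte markers -0.21, 0.02 and -0.02 against -0.06, 0.20 and 0.07. By these medians replicate 1 was highest in muscle and hepatocyte markers and lowest in pancreas and enterocyte markers in both groups. It was likewise highest in both for 7 epidermis markers (0.75, -0.09 and 0.18 against 0.28, -0.46 and -0.44) and 15 proliferation genes (0.26, 0.16 and 0.21 against 0.13, -0.44 and -0.05). Summed CPM gave another order for enterocyte genes in controls, at 33337 in replicate 1 and 33256 in replicate 3. Proliferation genes summed to 1027, 1026 and 1062 CPM in transected and 951, 770 and 971 CPM in control guts. Medians of the other lists did not follow the replicate number. Medians of 9 goblet and enteroendocrine markers were 0.01, 0.06 and -0.07 against -0.03, 0.23 and -0.02, with replicate 1 lowest in controls alone. Macrophage and neutrophil markers had higher medians in every transected than in every control library, at 0.28, 0.63 and 1.01 against -0.51, -0.61 and -0.83. For them replicate 1 was the lowest transected and the highest control library. All 13 tested had a positive log2 fold change (median 1.05), of which edgeR called 0 and DESeq2 8, and the 14 listed summed to 253 to 489 CPM in transected and 98.9 to 146 CPM in control guts. Several other lists leaned to 1 side. All 10 tested hepatocyte markers were negative (median log2 fold change -0.68) and all 15 proliferation genes positive (0.21). Pancreas markers were 13 positive and 2 negative (0.40), and enterocyte markers 2 and 12 (-0.10). Epidermis markers were 5 and 2 (0.33), muscle 5 and 4 (0.09), and goblet and enteroendocrine 4 and 5 (-0.07). edgeR called 0 in each, and DESeq2 1 enterocyte and 1 epidermis gene. Over all genes edgeR called 0.0174% and DESeq2 1.46%. Summed levels ran from 3118 to 4968 CPM in transected and 3121 to 5097 CPM in control guts for the 12 muscle genes listed, and from 26803 to 32838 and 33256 to 36935 CPM for the 15 enterocyte genes. The enterocyte sums did not overlap, but apobb.1 alone held 11173 to 19807 CPM of them. Gene by gene, the groups did not overlap for 21.4% of the 14 tested enterocyte markers, against 13.9% of all genes tested. Listed at 0 in every library were actn3a (muscle), scg3 (enteroendocrine), mpeg1.1 (macrophage), cdk1 and plk1 (proliferation). Others stayed low, with highest values of 0.04 CPM for ckma and 0.15 CPM for mylpfa (muscle). Highest values were 0.17 CPM for cldni and 0.27 CPM for krt5 (epidermis), and 0.42 CPM for fabp2. In pancreas they were 0.60 CPM for cpb1 and 1.30 CPM for ctrb1. The part of these cell types in the levels of mitochondrial ribosome genes was not tested.

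Other genes of mitochondrial gene expression gave no call either. edgeR called 0 members higher or lower at an adjusted p under 0.05 in each list below. Since it called only 0.0174% of all 11466 genes tested, 0 calls in a short list says little about that list. Ribosomal proteins under other symbols had 4 tested genes, 1 positive and 3 negative, with a median log2 fold change of -0.03. Among them, dap3 (32.05 ± 5.72 against 33.8 ± 6.03 CPM) and ptcd3 (33.3 ± 5.48 against 34.7 ± 5.93 CPM), both small subunit proteins, had adjusted p-values of 0.965 and 0.968, and their log2 fold changes turned from -0.08 and -0.06 to 0.05 in both without transected replicate 1. Of 22 ribosome assembly genes 9 were positive and 13 negative (median -0.06). gtpbp10, a GTPase of large subunit maturation, was 17.7 ± 0.841 against 20.8 ± 0.669 CPM, with all transected libraries below all controls and an adjusted p of 0.642. c1qbp went the other way, at 128 ± 6.14 against 113 ± 10.1 CPM with overlap (adjusted p = 0.762). Of 15 translation factors 8 were positive and 7 negative (median 0.00). si:ch211-275j6.5, matched as a synonym of mtrfr, was 1.73 ± 0.210 against 1.11 ± 0.411 CPM. Its groups overlapped (log2 fold change 0.63, SE 0.34, adjusted p = 0.741). mtfmt was 8.77 ± 0.459 against 9.99 ± 0.924 CPM, with all transected libraries below all controls (adjusted p = 0.797). Of 16 tRNA processing and modifying enzymes 5 were positive and 11 negative (median -0.10). trmu, which thiolates mitochondrial tRNAs, was 12.8 ± 2.65 against 15.8 ± 1.80 CPM (adjusted p = 0.761). alkbh1 was 4.31 ± 0.670 against 5.22 ± 0.539 CPM, with all transected libraries below all controls (adjusted p = 0.797).

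Of 12 genes that copy, transcribe or process mitochondrial DNA and RNA 4 were positive and 8 negative, with a median log2 fold change of -0.12. tfb2m, a factor that starts transcription on mitochondrial DNA, had 40.1, 40.8 and 46.0 CPM in transected and 49.5, 53.7 and 62.1 CPM in control guts. The groups did not overlap, and at a log2 fold change of -0.38 (SE 0.12) the unadjusted p was 0.0160 and the edgeR adjusted p 0.506. mterf2 was 8.11 ± 0.592 against 10.8 ± 3.07 CPM, with overlap (log2 fold change -0.42, SE 0.23, adjusted p = 0.744). Of 34 import and folding genes 11 were positive and 23 negative (median -0.06). yme1l1b, a protease of the inner membrane, was 48.8 ± 3.52 against 56.7 ± 1.31 CPM, without overlap (adjusted p = 0.635). grpel2 was 31.8 ± 1.40 against 36.9 ± 4.99 CPM, also without overlap (adjusted p = 0.750). Of 11 regulators of mitochondrial genes 8 were positive. myca, a Myc transcription factor gene, stood at 43.5, 48.2 and 41.7 against 34.6, 33.3 and 37.0 CPM (log2 fold change 0.35, SE 0.10, adjusted p = 0.473). esrra, which encodes a nuclear receptor that drives mitochondrial genes in mammals, stood at 12.5, 12.2 and 13.2 against 17.0, 15.5 and 14.5 CPM (-0.31, SE 0.11, adjusted p = 0.568). Neither passed the test, although in both the groups did not overlap. The genes named had the smallest p of their lists, a choice that favours separated groups. Groups did not overlap for 18.2% of the regulators, 8.82% of import and folding genes, 8.33% of mitochondrial DNA and RNA genes and 9.09% of assembly genes. For translation factors and tRNA enzymes the shares were 6.67% and 6.25%. Over all genes tested the share was 13.9%.

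The cytosolic counterparts are set beside them. Of 19 tested cytosolic or shared synthetase genes and their partners 17 were positive and 2 negative, with a median log2 fold change of 0.13. edgeR called 0 of them, against 0.0174% of all genes tested. farsa was 47.9 ± 0.986 against 40.9 ± 5.22 CPM (adjusted p = 0.720), with all transected libraries above all controls, and sars1, for serine, was 125 ± 12.3 against 108 ± 7.11 CPM (adjusted p = 0.726). Groups did not overlap for 5.26% of this list, against 13.9% of all genes tested. Cytosolic ribosomal protein symbols, among which the pattern took in 7 S6 kinase genes, had 66 of 77 positive with a median of 0.07. Their level was highest in replicate 1 of both groups, at 0.15 and 0.13, where the mitochondrial set was lowest. Respiratory chain genes had 52 of 82 positive with a median of 0.03, and replicate 1 libraries lowest in both groups, at -0.14 and -0.22. Replicate 1 was also lowest in both for import and folding genes (-0.26 and -0.12) and ribosomal proteins under other symbols (-0.31 and -0.26). The same held for translation factors (-0.18 and -0.04), mitochondrial DNA and RNA genes (-0.15 and -0.04) and cytosolic synthetases (-0.20 and -0.28). For assembly genes and tRNA enzymes it was lowest in transected guts alone. Differences between the lists were not tested.

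**Figure D5:**
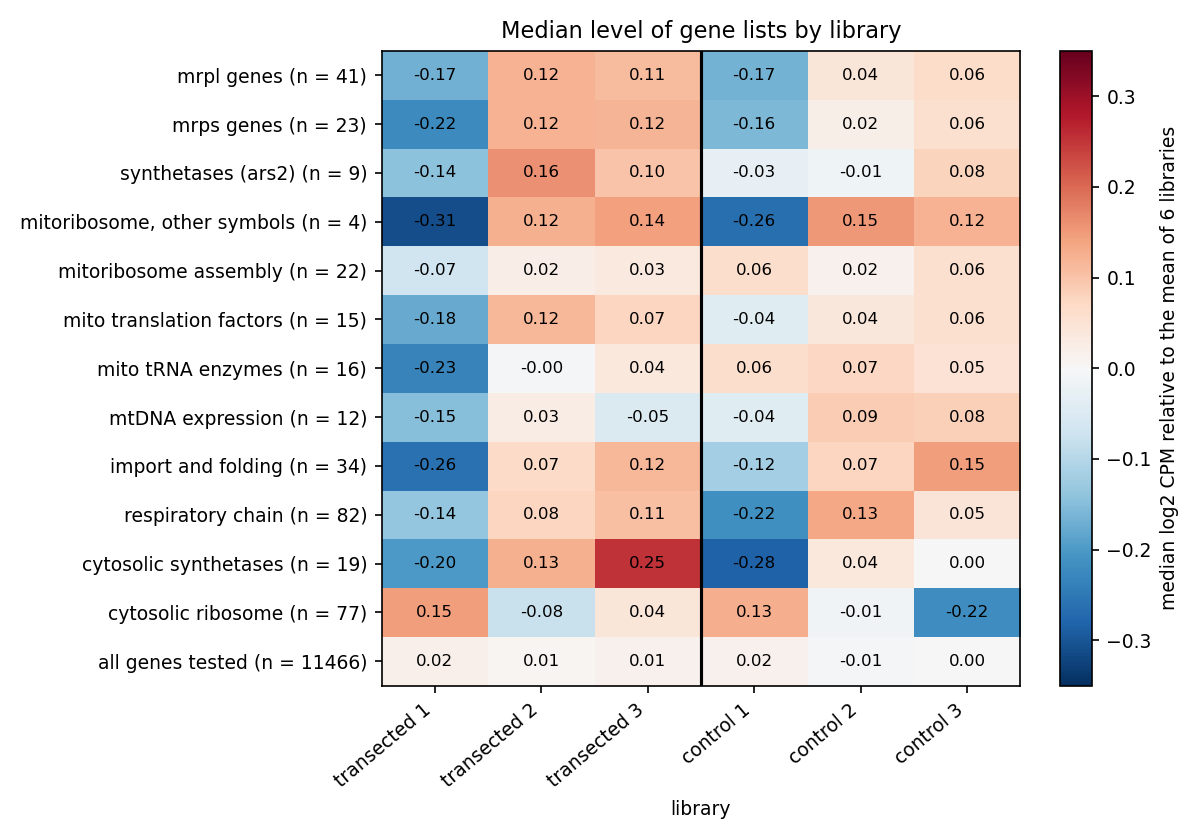
Median log2 CPM of each gene list relative to the mean of the 6 libraries (colour and printed value), by library, with the number of tested genes in brackets. Most rows are lowest in replicate 1 of both groups. The mitoribosome assembly and mito tRNA enzyme rows are lowest there in transected guts alone. The cytosolic ribosome row is highest there in both groups, and the row of all genes tested stays near 0.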

How the data were processed

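Per the labels' protocols, libraries came from a stranded mRNA kit and were read on a NovaSeq instrument from both ends, 100 bp each; FastQC 0.11.8 served for read quality, and alignment was to danRer11. The deposited values are whole-number counts for each symbol, with no sign of scaling. What aligner, counting tool, strand setting and annotation the authors used was not given in the sources used here.

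Low genes were removed by filterByExpr (counts of 10, total of 15), and the rest scaled with TMM (factors 0.935 to 1.05) and fitted by quasi-likelihood in edgeR 4.0.16 (R 4.3.3), robust, on group alone. Two-sided p-values had Benjamini-Hochberg adjustment over 11466 genes. SE is the log2 fold change over the root of F, and 95% intervals use the fit's degrees of freedom. Library medians use log2 CPM with a prior count of 2. DESeq2 1.42.0 and limma-voom (limma 3.58.1) were alternatives. The scripts were tested on simulated data. One count was worth 0.0384 to 0.0465 CPM, and 3 counts, the limit that a count of 0 allows, up to 0.139 CPM, counting error only.

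Replicates within a group were not copies (chi-square per degree of freedom 26.4 to 243). Deviations from group means correlated at 0.450, 0.512 and 0.177 between libraries of equal number. Between libraries of unequal number the values ran from -0.527 to 0.118. Deviations within a group sum to 0, so these correlations are not independent of each other. On these values the numbers were taken as pairs in a blocked alternative. The numbers come from the sample titles, which mark them as biological replicates. There replicates 2 and 3 also share a second number across groups and replicate 1 does not. No label says what the second number marks or whether equal numbers are pairs. Members and gene lists were chosen with earlier results of these data known. Genes named were, in each class, the 4 with the smallest unadjusted p, and 2 such genes in each other list. Picks from the marker, respiratory chain and cytosolic ribosome lists were made but are not printed. Any mrpl, mrps or synthetase gene called by edgeR or DESeq2 was also to be named, and there was none. Others are marked. The part of that rule on the highest and lowest levels per length was not applied, as coding lengths were not used here. The respiratory chain symbols include assembly factors (ndufaf). Of 84 symbols 83 matched RefSeq GRCz12tu, and genes of mitochondrial DNA were not analysed here.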

Additional observations from a re-analysis of the deposited data

How the results depend on the processing

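All 19 alternatives called 0 members higher and 0 lower, among them the fit with the replicate block, DESeq2 with the block and limma-voom. Of all genes these alternatives called from 0% (limma-voom and several fits with libraries left out) to 2.51% (DESeq2 with the block). Where 0% of all genes were called, the count of 0 members was fixed in advance. The replicate block left 0 members at an unadjusted p under 0.05 in either direction, against 13.1% of all genes, and its smallest adjusted p among members was 0.429; it changed no call named here. The members' median log2 fold change ran from -0.04 to 0.11, and each of the scalings moved the median of all genes by at most 0.01. Leaving out 1 library gave 0 to 2 members higher and 0 to 1 lower at an unadjusted p under 0.05, where 4.37% to 12.9% of all genes passed; 2 members, 2.74%, passed without transected replicate 1 (9.96% of all genes) and without control replicate 1 (12.9%). It gave 2 to 20 wholly higher and 1 to 7 wholly lower (9.80% to 18.1% and 8.74% to 15.6% of all genes), and a synthetase median of -0.047 to 0.105. The 20 (27.4%, all genes 14.9%) were without transected replicate 1, and the 7 (9.59%, all genes 15.6%) without control replicate 1.

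Without both replicate 1 libraries 2 members were higher (mrps10, mrps18a) and 1 lower (mrps22) at an unadjusted p under 0.05, where 19.2% of all genes were; 29 were wholly higher and 8 wholly lower, with 26.9% and 26.0% of all genes; the smallest adjusted p was 0.206. Without both replicate 2 libraries, added after the data were seen, 7 were wholly higher and 3 lower (15.0% and 14.2% of all genes), and without both replicate 3 libraries 3 were higher and 3 lower (13.4% and 11.9%). With at least 1 CPM in 3 libraries 0 were wholly lower.

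Signs turned in 9 of 627 values of the genes picked by smallest p outside the marker lists, printed here or not, and of mrps11. All 9 were in dap3, fars2, ptcd3 and yars2, which had 19 values each. The cause was not tested. The other genes named after their values were seen are not in this count. One of them, mrpl20, went from 0.045 to -0.081 without both replicate 1 libraries. Leaving out 1 library gave yars2 -0.27 to 0.057, dap3 -0.21 to 0.051 and ptcd3 -0.196 to 0.053, each highest without transected replicate 1, and fars2 -0.015 (without transected replicate 2) to 0.145. Without control replicate 2 ptcd3 was 0.022, and without control replicate 3 dap3 was 0.039 and ptcd3 0.0038. Without both replicate 1 libraries yars2 was 0.009, and without both replicate 2 libraries fars2 was -0.0062. The count of genes with replicate 1 lowest in both groups was 34 to 47 under other scalings. Tested genes held at least 577 counts each, and 3 libraries per group limit the precision.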
